A study of Mus musculus with 30 samples.

Results

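Tetraspanins are small proteins that cross the membrane repeatedly and assemble with each other, with integrins and with immunoglobulin-like partners into membrane domains. Some sit mainly at the cell surface, where they shape adhesion, migration and fusion. Others cycle through late endosomes and are carried on extracellular vesicles, for which Cd63, Cd9 and Cd81 serve as common protein markers. In myeloid cells the family includes broadly expressed members and members restricted to leukocytes. The genes described here are 7 tetraspanins of the 45317 gene symbols counted: Cd63, Cd9, Cd81, Cd82, Cd53, Cd37 and Cd151. They were chosen by name, and Cd63 and Cd9 were also selected on their large differences between the populations. The values of these 2 genes are therefore given as a description with no test, and tests were run on the other 5.

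RNA was sequenced from 8 populations of sorted myeloid cells of 4 mice (numbers 22, 23, 24 and 26). All mice were 12 to 18 weeks old, heterozygous for a red fluorescent protein knocked into Ccr2 (strain C57BL6.CCR2RFP/WT), and carried an intracranial GL261 glioma, a mouse glioma line, that expressed a membrane-anchored (palmitoylated) GFP. The blood gave Ly6CHigh and Ly6CLow monocytes (3 replicates each), the inflammatory and the patrolling type. The brain gave Ly6Chigh monocytes, called glioma monocytes here (3 replicates with GFP and 3 without), CCR2high macrophages and CCR2low macrophages (4 replicates with GFP and 4 without each). GFP in a sorted cell marked uptake of glioma membrane. Every mouse carried a tumor and a disrupted Ccr2 allele, the glioma was 1 cell line, and no mouse without a tumor was among the samples. Per the study's methods, brains were dissociated with enzymes and spun through Percoll, whereas blood was not. The sets of sorting antibodies also differed. Blood and brain therefore differ in tissue, contact with the tumor, handling and gating together.

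The 28 replicates held 1553616 to 5689644 counts on genes (median 2140229.5), and spike-in RNA made up 0.284% to 13.3% of the counts. Levels are given as CPM, the count of a gene relative to the total of its library in units of 1e6, after scaling by the trimmed mean of M values. Among transcripts of the sorting markers, Ly6c2 was at 964 to 1291 CPM in Ly6Chigh blood monocytes and at 27.8 to 273 CPM in Ly6Clow ones. Ccr2 was at 1890 to 2384 CPM in Ly6Chigh blood monocytes. In GFPneg macrophages it was at 143.5 to 312.6 CPM in CCR2high and 31.9 to 111.8 CPM in CCR2low cells. In GFPpos macrophages these ranges overlapped (56.6 to 201.4 and 33.9 to 111 CPM). Itgax, the gene of CD11c, was at 2.93 to 43.3 CPM in Ly6Chigh and 73.6 to 495.4 CPM in Ly6Clow blood monocytes, although both were gated as CD11c low. Markers of microglia, the resident brain macrophages that usually carry less CD45 than the gate asked for, were present in every brain population: the 6 markers together made 1066 to 6581 CPM in the brain and 0.944 to 57.4 CPM in the blood. Markers of T and NK cells (5 genes) made 18.2 to 134.8 CPM in Ly6Chigh blood monocytes and 211.3 to 1424 CPM in all other populations. The 3 replicates of most spike-in counts were GFPpos glioma monocytes of mouse 22 (3.59%) and mouse 24 (5.16%) and Ly6Clow monocytes of mouse 23 (13.3%). In sorted bulk samples, a change in the share of cells that carry an RNA and a change in its amount per cell cannot be told apart.

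All 7 members passed the filter on low counts. Levels of different genes were compared per kilobase of exon. Cd53 had the highest mean per kilobase in 6 of the 8 populations, with 1099 CPM per kilobase in Ly6Clow blood monocytes, and Cd81 had the highest in both CCR2low macrophage populations, with 702 CPM per kilobase in the GFPneg and 627 in the GFPpos cells. Cd63 and Cd151 were the lowest of the 7 in both blood populations, between 0.914 and 6.55 CPM per kilobase. With the longest transcript as the length, Cd81 instead led in 5 populations, since its longest transcript (1607 bases) is shorter than its joined exons (2879 bases). Population means ran over a wide range for Cd63 (3.37 to 1485 CPM), Cd81 (21.1 to 2021 CPM) and Cd9 (49.3 to 937.9 CPM), and over a narrower one for Cd82 (125.4 to 517.1 CPM), Cd37 (126.6 to 242.8 CPM) and Cd53 (1014 to 1914 CPM). Means of Cd151 were low throughout (4.65 to 17.9 CPM).

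**Figure D1:**
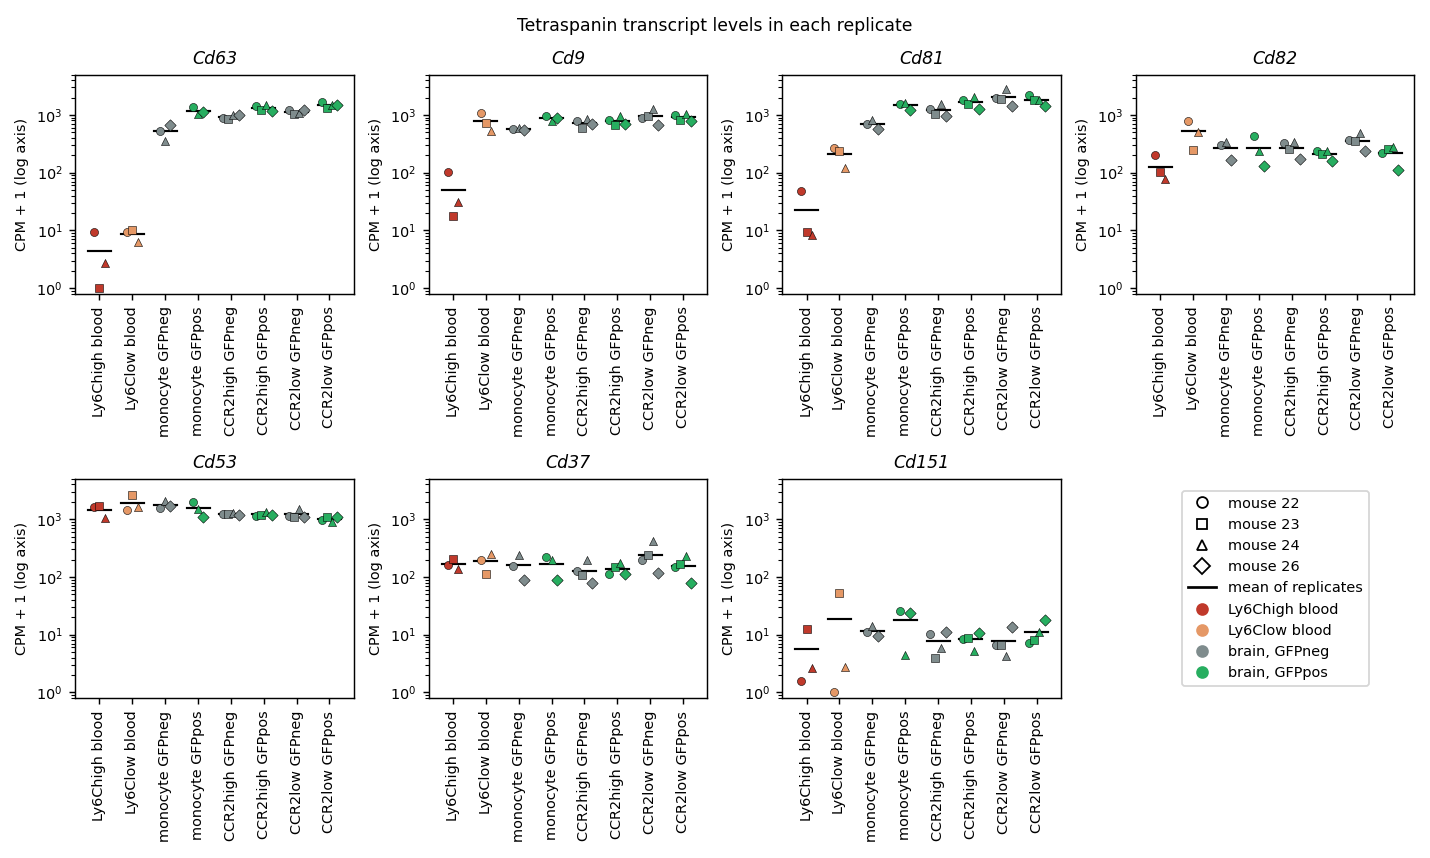
Level of each tetraspanin gene in each of the 28 replicates (CPM + 1, log axis) over the 8 populations; each point is a replicate, its shape gives the mouse, and the line is the mean. Cd63 lies between 0 and 9.25 CPM in the 6 blood replicates and between 349.6 and 1679 CPM in the 22 brain replicates, whereas Cd53 lies between 893.8 and 2672 CPM in all of them.

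Cd63, a protein of late endosomes, lysosomes and secreted vesicles, was almost absent from the blood populations and abundant in every brain population. It is at chr10:128900989-128912822 (GRCm38, + strand), where no other annotated gene overlaps it. In Ly6Chigh blood monocytes its level was 8.43, 0 and 1.67 CPM (mice 22, 23 and 24), from 15, 0 and 8 counts. In Ly6Clow blood monocytes it was 8.49, 9.25 and 5.33 CPM in the same mice. The ranges of both blood populations overlapped. Glioma monocytes without GFP held 521.7, 349.6 and 674.9 CPM (mice 22, 24 and 26), and those with GFP held 1349, 1032 and 1104 CPM. In CCR2high macrophages the level was 883.6, 848, 993.7 and 996.7 CPM without GFP (mice 22, 23, 24 and 26) and 1431, 1227, 1462 and 1168 CPM with it. CCR2low macrophages held 1229, 1026, 1088 and 1201 CPM without GFP and 1679, 1298, 1499 and 1463 CPM with it. Every brain replicate was above every blood replicate. The order of the population means ran from GFPpos CCR2low macrophages (1485 ± 156.5, SD, n = 4) down to GFPneg glioma monocytes (515.4 ± 162.7, n = 3) among the brain populations. The ranges of the first 4 populations in that order (the 3 with GFP and the GFPneg CCR2low macrophages) each overlapped the next, and GFPneg CCR2high macrophages and GFPneg glioma monocytes each lay below the population before them without overlap. The mean in GFPneg glioma monocytes was 153 times that in Ly6Chigh blood monocytes, a ratio that rests on the 15, 0 and 8 counts of the blood replicates. Cd63-ps, a processed copy, held 0 to 70 counts per replicate, at most 1.07% of the count of Cd63 in a brain replicate.

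Cd9, a surface tetraspanin of adhesion and membrane fusion that is also abundant on platelets, was low in Ly6Chigh blood monocytes alone. It is at chr6:125460266-125494791 (− strand) and overlaps Gm26728 and Gm28809 on the other strand, whose reads cannot be told apart without strand. Ly6Chigh blood monocytes held 101.7, 16.4 and 29.7 CPM (mice 22, 23 and 24). Ly6Clow blood monocytes held 1067, 726.8 and 521.8 CPM. The lowest Ly6Clow value was thus above the highest Ly6Chigh value. Glioma monocytes without GFP stood at 559.8, 591.6 and 548.4 CPM (mice 22, 24 and 26) and those with GFP at 955.1, 783.2 and 871.2 CPM. The CCR2high macrophages ran from 580.5 to 837 CPM without GFP and from 677.1 to 943.6 CPM with it, and the CCR2low macrophages from 676.1 to 1245 and from 780.4 to 1015 CPM. Ly6Clow blood monocytes (771.7 ± 275.2, SD, n = 3) came between GFPpos and GFPneg CCR2high macrophages in the order of means, and all 7 populations above Ly6Chigh blood monocytes overlapped their neighbours in the order. Summed platelet markers (7 genes) were 152.4, 0 and 16 CPM in the Ly6Clow replicates of mice 22, 23 and 24, and their part in the level of Cd9 was not tested.

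Cd81, a surface tetraspanin that pairs with immunoglobulin-superfamily partners on many cells, rose in steps from Ly6Chigh blood monocytes through Ly6Clow monocytes to the brain. It is at chr7:143052739-143067934 (+ strand) and overlaps the transcript R74862 on the other strand. Its level was 47.8, 8.2 and 7.32 CPM in Ly6Chigh blood monocytes and 268, 237.1 and 120.8 CPM in Ly6Clow ones (mice 22, 23 and 24). Glioma monocytes held 693.3, 799.3 and 560 CPM without GFP and 1530, 1609 and 1221 CPM with GFP (mice 22, 24 and 26). In CCR2high macrophages the values were 1273, 1054, 1531 and 937.3 CPM without GFP and 1788, 1515, 2025 and 1284 CPM with it. CCR2low macrophages held 1947, 1868, 2842 and 1426 CPM without GFP and 2175, 1815, 1784 and 1450 CPM with it. These steps did not overlap between Ly6Chigh and Ly6Clow monocytes, between the latter and GFPneg glioma monocytes, or between those and GFPneg CCR2high macrophages, and the 5 populations above each overlapped the next in the order of means. Without any scaling between libraries, the count of Cd81 per count of Cd53 was 0.00494 to 0.186 in blood and 0.334 to 2.25 in brain. The count of Cd9 per count of Cd81 was 2 to 4.32 in blood and 0.438 to 0.979 in brain, again with no overlap.

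The promoters of Cd63, Cd9 and Cd81, the members of widest range, and of Cd53 and Cd37, the members restricted to leukocytes, are shown for comparison, from RefSeq (GRCm38.p6), where all 7 members matched with 11 start sites. Each line gives 250 bases before and 50 after the start, on the strand of the gene. Capitals mark GGGCGG, the GC box bound by Sp1-type factors, and GAGGAAGT, a sequence of the kind bound by Ets factors such as PU.1 (on the opposite strand, ACTTCCTC).
Cd63, chr10:128909095-128909394 (+ strand): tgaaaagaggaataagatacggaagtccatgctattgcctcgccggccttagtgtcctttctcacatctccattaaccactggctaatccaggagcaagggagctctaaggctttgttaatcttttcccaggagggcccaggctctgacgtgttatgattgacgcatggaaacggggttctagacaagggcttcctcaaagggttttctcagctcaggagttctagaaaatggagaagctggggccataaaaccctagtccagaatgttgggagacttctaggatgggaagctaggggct
Cd9, chr6:125494711-125495010 (− strand): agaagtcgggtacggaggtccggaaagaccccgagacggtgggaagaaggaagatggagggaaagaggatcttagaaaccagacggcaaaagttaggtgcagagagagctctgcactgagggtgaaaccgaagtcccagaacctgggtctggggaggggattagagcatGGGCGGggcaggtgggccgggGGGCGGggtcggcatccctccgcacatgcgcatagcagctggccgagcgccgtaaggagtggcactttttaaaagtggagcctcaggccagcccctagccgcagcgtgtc
Cd81, chr7:143052500-143052799 (+ strand): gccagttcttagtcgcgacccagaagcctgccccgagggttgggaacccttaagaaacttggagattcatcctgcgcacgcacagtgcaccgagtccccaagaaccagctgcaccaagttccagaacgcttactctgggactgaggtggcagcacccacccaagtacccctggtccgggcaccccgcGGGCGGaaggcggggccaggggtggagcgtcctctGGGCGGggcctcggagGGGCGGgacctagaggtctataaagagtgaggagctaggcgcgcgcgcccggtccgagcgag
Cd53, chr3:106790100-106790399 (− strand): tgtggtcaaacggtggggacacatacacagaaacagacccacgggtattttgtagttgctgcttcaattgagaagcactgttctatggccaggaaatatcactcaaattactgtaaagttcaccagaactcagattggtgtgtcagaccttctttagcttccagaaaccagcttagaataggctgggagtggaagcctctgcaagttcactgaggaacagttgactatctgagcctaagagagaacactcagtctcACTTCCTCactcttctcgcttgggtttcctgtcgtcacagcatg
Cd37, chr7:45238790-45239089 (− strand): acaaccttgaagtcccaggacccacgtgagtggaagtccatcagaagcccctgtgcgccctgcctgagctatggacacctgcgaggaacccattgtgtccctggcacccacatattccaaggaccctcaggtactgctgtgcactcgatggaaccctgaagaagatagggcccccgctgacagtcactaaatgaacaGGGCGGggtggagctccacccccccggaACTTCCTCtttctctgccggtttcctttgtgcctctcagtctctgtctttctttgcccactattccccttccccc
Searched on both strands, GGGCGG was found 2 times in the window of Cd9, 3 times in that of Cd81 and 1 time in that of Cd37, and in 35.7% of all 32851 promoter windows. GAGGAAGT was found 1 time each in the windows of Cd53 and Cd37 and in 3.2% of all windows. It was also found at 1 of the 4 starts of Cd82. GGGCGG was found at 2 of those 4 starts (2 matches and 1) and at 1 of the 2 starts of Cd151 (2 matches). CACGTG (7.15% of all windows) was found in the window of Cd37, and TGACTCA (5.2%) in none of the 11. The window of Cd63 held none of these sequences and lies inside the gene interval given above. A match describes letters only and is not a measured binding site.

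Cd82, also known as KAI1 and studied as a suppressor of metastasis, was highest in Ly6Clow blood monocytes. It is at chr2:93419111-93463140 (− strand), overlapping Gm10804 and the microRNA gene Mir7001. Ly6Chigh blood monocytes held 198.3, 100.8 and 77.1 CPM and Ly6Clow ones 793, 247.5 and 510.8 CPM (mice 22, 23 and 24). Glioma monocytes stood at 303, 342.6 and 161.3 CPM without GFP and at 422.7, 237.7 and 131 CPM with it (mice 22, 24 and 26). CCR2high macrophages ranged from 171.1 to 336 CPM without GFP and from 157.9 to 238.6 CPM with it. CCR2low macrophages ranged from 231.5 to 490.7 CPM without GFP and from 109.8 to 277.7 CPM with it. Every population overlapped its neighbour in the order of means.

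Cd53, found on nearly all leukocytes, was high in all 28 replicates. It is at chr3:106759921-106790149 (− strand), with no overlapping gene. The level was 1625, 1660 and 1047 CPM in Ly6Chigh and 1444, 2672 and 1626 CPM in Ly6Clow blood monocytes (mice 22, 23 and 24). The brain replicates ran from 893.8 CPM, in a GFPpos CCR2low macrophage replicate, to 2105 CPM, in a GFPneg glioma monocyte replicate, with a median of 1202 CPM. Cd37, a leukocyte tetraspanin best known from B cells, is at chr7:45233632-45239115 (− strand), where Tead2 overlaps it on the other strand. It ran from 113.4 to 247.7 CPM in blood (median 178.6) and from 77.4 to 422.3 CPM in brain (median 149.6). Cd151, a partner of laminin-binding integrins, is at chr7:141467392-141471473 (+ strand), overlapping Gm10575. It reached 52.1 CPM in Ly6Clow monocytes of mouse 23, the replicate with 13.3% spike-in counts, and lay between 0 and 24.5 CPM in every other replicate. All neighbours in the orders of Cd53, Cd37 and Cd151 overlapped.

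The first comparison set Ly6Clow against Ly6Chigh monocytes within the blood. Cd81 and Cd82 were higher in Ly6Clow monocytes, while Cd53, Cd37 and Cd151 did not pass the threshold. The log2 fold change of Cd81 was 3.34 ± 0.48 (SE) with an adjusted p of 0.000111, and that of Cd82 was 2.05 ± 0.46 with an adjusted p of 0.0076 (edgeR quasi-likelihood test, Benjamini-Hochberg adjustment over 11566 genes). These 2 of 5 tested members stand beside 5.61% of all tested genes called in this comparison. The median log2 value of the 5 was 1.99, which is that of Cd151, against −0.02 for all genes. Without Ly6Clow mouse 23 the value of Cd151 turned to −2.15 and the median of the 5 fell to 0.38. As a description, Cd9 differed by 3.98 ± 0.43 and Cd63 by 1.28 ± 0.5 on the log2 scale. Replicates of the 2 populations did not overlap, with Ly6Clow higher, for Cd9, Cd81 and Cd82, as for 7.23% of all tested genes. The values of the other 3 were 0.41 ± 0.23 for Cd53 (adjusted p = 0.306), 0.16 ± 0.45 for Cd37 (adjusted p = 0.912) and 1.99 ± 1.14 for Cd151 (adjusted p = 0.315). T and NK cell markers moved with the comparison, from 18.2 to 134.8 CPM in Ly6Chigh to 673 to 999.2 CPM in Ly6Clow monocytes, as did B-cell markers (58.7 to 110.1 against 244.4 to 443 CPM), neutrophil markers (122.9 to 525.3 against 547.8 to 874.6 CPM) and endothelial markers (6.69 to 19.1 against 38.7 to 91.4 CPM), and their part in the result was not tested. Microglia markers were at 0.944 to 32 CPM in the Ly6Clow replicates, with Tmem119 at 0 in all 3. When only these 6 replicates were fitted, neither call held (log2 3.33, adjusted p = 0.38 for Cd81 and log2 2.06, adjusted p = 0.4 for Cd82), in a fit that called 0 of 8928 genes. The call of Cd82 was also lost without Ly6Chigh mouse 23 (adjusted p = 0.07245), Ly6Chigh mouse 24 (0.06818) or Ly6Clow mouse 22 (0.05765), and both calls were lost when libraries were scaled to their spike-ins, which moved the median of all genes from −0.02 to −1.69. That scaling also turned the values of Cd53 (−1.43), Cd37 (−1.15), Cd151 (−1.53) and Cd63 (−0.863).

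**Figure D2:**
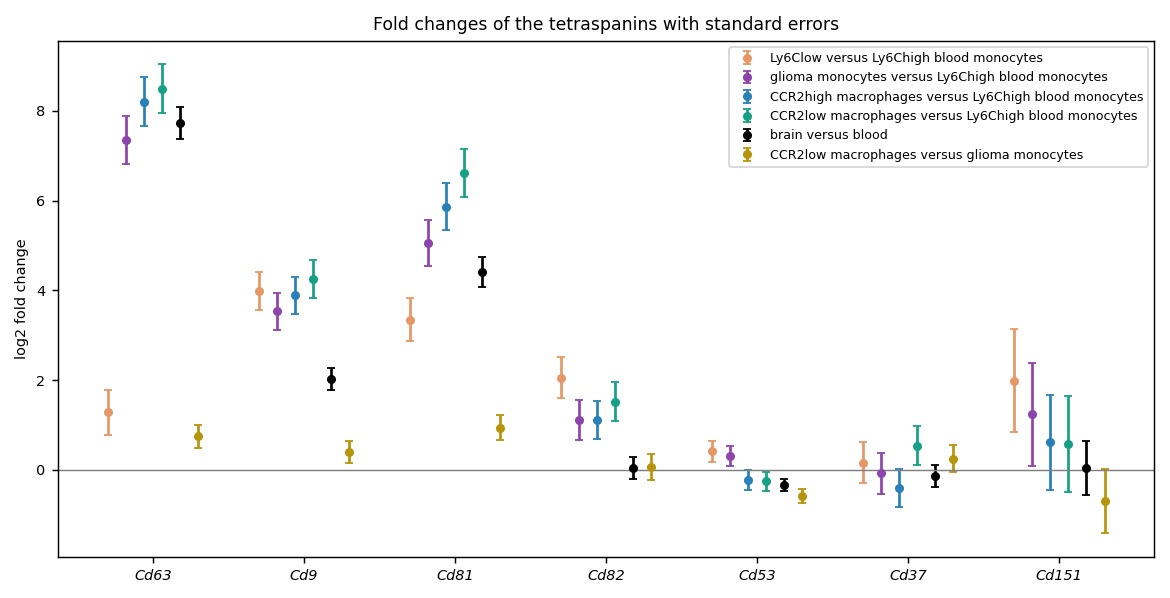
Log2 fold change (y axis) of the 7 tetraspanin genes (x axis) in 6 comparisons, with standard errors from the edgeR fit over 28 replicates; Cd63 and Cd9 are shown as a description. Cd81 lies between 3.34 and 6.62 in the 4 comparisons with Ly6Chigh blood monocytes, and Cd53 between −0.26 and 0.41 in the same 4, although scaling to spike-ins turns its brain against blood value from −0.34 to 0.34.

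The next comparisons set each GFPneg brain population against Ly6Chigh blood monocytes, the cells from which infiltrating monocytes are thought to derive. All 3 comparisons share these 3 blood replicates, so their values are given side by side and are not independent. Cd81 was higher in each: by 5.06 ± 0.51 in glioma monocytes (adjusted p = 8.16e-08), 5.86 ± 0.52 in CCR2high macrophages (adjusted p = 1.02e-08) and 6.62 ± 0.54 in CCR2low macrophages (adjusted p = 1.87e-09; log2, edgeR). The ratios of mean CPM were 32.4, 56.9 and 95.8. Cd82 was higher in CCR2low macrophages by 1.52 ± 0.43 (adjusted p = 0.0128, edgeR), with values of 1.11 ± 0.45 in glioma monocytes (adjusted p = 0.108) and 1.11 ± 0.43 in CCR2high macrophages (adjusted p = 0.0718) that did not pass. Thus 1, 1 and 2 of the 5 tested members were called, beside 13.8%, 17.8% and 20.2% of all tested genes. The median log2 values of the 5 were 1.11, 0.61 and 0.58, against 0.12, 0.15 and 0.17 for all genes. In the description, Cd63 differed by 7.35, 8.21 and 8.49 and Cd9 by 3.53, 3.89 and 4.26 on the log2 scale in the same order. Cd53, Cd37 and Cd151 passed in none of the 3, with log2 values from −0.4 to 1.23.

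Mouse 22 among the Ly6Chigh replicates held more Cd9 and Cd81 than the others. Without it, the log2 value of Cd63 became 8.7 in glioma monocytes and that of Cd9 became 4.52, and Cd82 was called in CCR2high macrophages (adjusted p = 0.03627, edgeR). The log2 value of Cd81 became 6.4 in glioma monocytes, 7.2 in CCR2high and 7.97 in CCR2low macrophages, and 4.66 in Ly6Clow blood monocytes, where it was 5.06, 5.86, 6.62 and 3.34 with that replicate. With the mouse as a block, Cd82 was called in glioma monocytes too (log2 1.29, adjusted p = 0.005185) and in CCR2high macrophages (1.34, adjusted p = 0.001638). Without Ly6Chigh mouse 23 or mouse 24, the call of Cd82 in CCR2low macrophages was lost (adjusted p = 0.08331 and 0.09454), and with spike-in scaling it was lost too (0.4674).

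Taking all 6 brain populations against both blood populations, Cd81 rose by 4.41 ± 0.33 on the log2 scale (adjusted p = 5.15e-11, edgeR) and its 22 brain replicates did not overlap its 6 blood replicates. Cd53 fell by 0.34 ± 0.13 (adjusted p = 0.0328). These 2 of 5 called members stand beside 39.5% of all tested genes. Cd81 and, as a description, Cd63 (7.72 ± 0.36) were higher in every brain replicate than in every blood replicate, as were 4.75% of all tested genes. For Cd9 the difference was 2.02 ± 0.25, and the Ly6Clow replicates of mice 22 and 23 (1067 and 726.8 CPM) lay within the brain range of 548.4 to 1245 CPM, with mouse 24 (521.8 CPM) just below it. Cd82 (0.03 ± 0.25, adjusted p = 0.937), Cd37 (−0.14 ± 0.25, adjusted p = 0.706) and Cd151 (0.04 ± 0.6, adjusted p = 0.969) did not pass. The call of Cd53 was lost with the mouse as a block (adjusted p = 0.09517) and with DESeq2 (0.05488), and its direction turned with spike-in scaling (0.34). It was also lost without Ly6Chigh mouse 22 (adjusted p = 0.0672) or 23 (0.07532), Ly6Clow mouse 23 (0.1438), or mouse 22 of GFPneg CCR2high (0.066), GFPpos CCR2high (0.06872) or GFPpos CCR2low macrophages (0.06855). Cd151 was called without Ly6Clow mouse 23 (log2 2.07, adjusted p = 0.01105), which held 135 counts of Cd151 where the other blood replicates held 0 to 20. Microglia markers moved with blood and brain as given above (each of the 6 genes was lower in every blood replicate than in every brain replicate). Astrocyte and neural progenitor markers also did not overlap (0 to 0.296 CPM in blood, 4.9 to 45.7 in brain). Medians were higher in brain for platelet (62.7 against 6.03 CPM), endothelial (75.9 against 28.9 CPM) and T and NK cell markers (614.8 against 403.9 CPM), with overlap. Medians of the other marker lists of non-sorted cell types were lower in brain. The part of these cell types in the result was not tested.

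Within the brain, Cd53 was lower in CCR2low macrophages than in monocytes, and the estimate for Cd81 was in the other direction without passing the test. Averaged over GFPneg and GFPpos cells, Cd53 was lower in CCR2low macrophages than in glioma monocytes by 0.58 ± 0.15 (log2 −0.58, adjusted p = 0.0373, edgeR), from a mean of 1661 to 1111 CPM. Cd81 was at 1913 against 1069 CPM, a log2 value of 0.94 ± 0.29 that did not pass (adjusted p = 0.0956). This 1 call of 5 stands beside 2.22% of all tested genes. The direction of Cd53 turned with spike-in scaling (log2 0.43). Its call was lost without GFPneg monocytes of mouse 24 (adjusted p = 0.1516), GFPpos monocytes of mouse 22 (0.1629) or 24 (0.06495), GFPneg CCR2low macrophages of mouse 22 (0.08061), 23 (0.08285) or 26 (0.06877), or GFPpos ones of mouse 22 (0.07604), 23 (0.0519) or 24 (0.07153). Cd81 was called with the mouse as a block (log2 0.96, adjusted p = 0.04011) and with DESeq2 (adjusted p = 0.01569). When only these populations were fitted, Cd81 was called (adjusted p = 0.00674) and Cd53 was not (0.05503). Between CCR2high macrophages and glioma monocytes 0 of 5 members were called by edgeR and 0 by DESeq2, with 1 (Cd53, −0.44 ± 0.15) at an unadjusted p under 0.05, beside 0.752% of all tested genes. Between CCR2low and CCR2high macrophages 0 of 5 were called by edgeR and 0 by DESeq2, with 1 (Cd37, 0.57 ± 0.28) at an unadjusted p under 0.05, beside 0% of all tested genes (415 at an unadjusted p under 0.05, and 18 called by DESeq2).

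The presence of GFP marked cells that had taken up glioma membrane, and the cells with and without it came from the same mice. As a description, Cd63 was higher in the GFPpos cells in 11 of 11 within-mouse pairs, by 1.17 to 2.95 times (median 1.45), as were 0.432% of all tested genes. The difference held in 11 of 11 pairs with plain totals and with DESeq2 size factors, and for the count of Cd63 per count of Cd53 within a library, but in 5 of 11 with spike-in scaling. It was 1.17 ± 0.38 (log2) in monocytes, 0.51 ± 0.33 in CCR2high and 0.39 ± 0.33 in CCR2low macrophages. Cd81 was higher in 9 of 11 pairs and Cd9 in 9 of 11, the exceptions of both being CCR2low macrophages of mice 23 and 24, beside 6.04% of all tested genes higher in at least 9 pairs. With plain totals Cd81 was higher in 9 and Cd9 in 8 of the 11 pairs, and with spike-in scaling in 6 and 4. The GFPpos monocytes of mouse 22 were the sum of 2 libraries that differed. Before scaling, these held 916.1 and 1488 CPM of Cd81, 500.3 and 958.7 of Cd9, and 1422 and 1054 of Cd63. Cd82 was lower in 10 of 11 pairs, with ratios of GFPpos to GFPneg from 0.475 to 0.923, and higher in the monocytes of mouse 22 (1.4). Of all tested genes, 1.7% were lower in at least 10 pairs.

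Among the 5 tested members none passed the test between GFPpos and GFPneg cells. Over the 3 cell types, the log2 values were 0.46 ± 0.22 for Cd81 (adjusted p = 1, and −0.0185 with spike-in scaling), −0.38 ± 0.23 for Cd82 and −0.16 ± 0.12 for Cd53 (adjusted p = 1 for both, edgeR). By edgeR 0 of 5 members were called over all cell types, in monocytes, in CCR2high macrophages and in CCR2low macrophages, beside 0% of all tested genes in each, and 0 by DESeq2. Of all genes, 474, 739, 69 and 184 had an unadjusted p under 0.05 in these 4 comparisons, and DESeq2 called 16, 20, 1 and 5. At an unadjusted p under 0.05 there was 1 member (Cd81) over all cell types, 1 (Cd81, 1.09 ± 0.43) in monocytes and 0 in either macrophage population. The difference of the GFP effect between monocytes and macrophages was 0.94 ± 0.5 for Cd81 (adjusted p = 1), with 0 of 5 members called, 0 at an unadjusted p under 0.05 and 0% of all tested genes called (443 at an unadjusted p under 0.05, and 3 called by DESeq2). Microglia markers (1066 to 2172 against 1558 to 2423 CPM in monocytes) and astrocyte and neural progenitor markers (11.8 to 27.7 against 8.85 to 45.7 CPM) are given beside this comparison. In CCR2high macrophages the astrocyte and neural progenitor sum was 4.9 to 19.85 CPM without GFP and 4.96 to 18.6 CPM with it. In CCR2low macrophages it was 7.86 to 14.6 CPM without GFP and 17.8 to 30.5 CPM with it, and these ranges did not overlap. T and NK cell markers were lower in the GFPpos cells in 9 of 11 pairs, among them 4 of 4 in CCR2high (325.9 to 970.2 CPM without GFP and 256.6 to 620.5 with it) and 4 of 4 in CCR2low macrophages (703 to 1424 and 211.3 to 628.7 CPM), and in mouse 22 monocytes they were at 491.1 CPM without GFP and 921.3 with it. B-cell markers were lower in 6 of 11 pairs, among them 4 of 4 in CCR2low macrophages (98.6 to 925 and 37.1 to 412 CPM). Microglia markers were lower in 5 of 11: 4 of 4 in CCR2low and 1 of 4 in CCR2high macrophages, and 0 of 3 in monocytes. In monocytes of mice 22, 24 and 26 they were at 1066, 2172 and 1072 CPM without GFP and 1996, 2423 and 1558 CPM with it. Platelet markers were higher in the GFPpos cells of every within-mouse pair. They were at 13.9 to 141.3 CPM without GFP and 39.5 to 156.9 with it in monocytes. The ranges were 35.3 to 228 and 53.6 to 253.8 CPM in CCR2high, and 41.3 to 167.7 and 48.3 to 248.5 CPM in CCR2low macrophages. The part of these cell types in the GFP comparison was not tested.

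**Figure D3:**
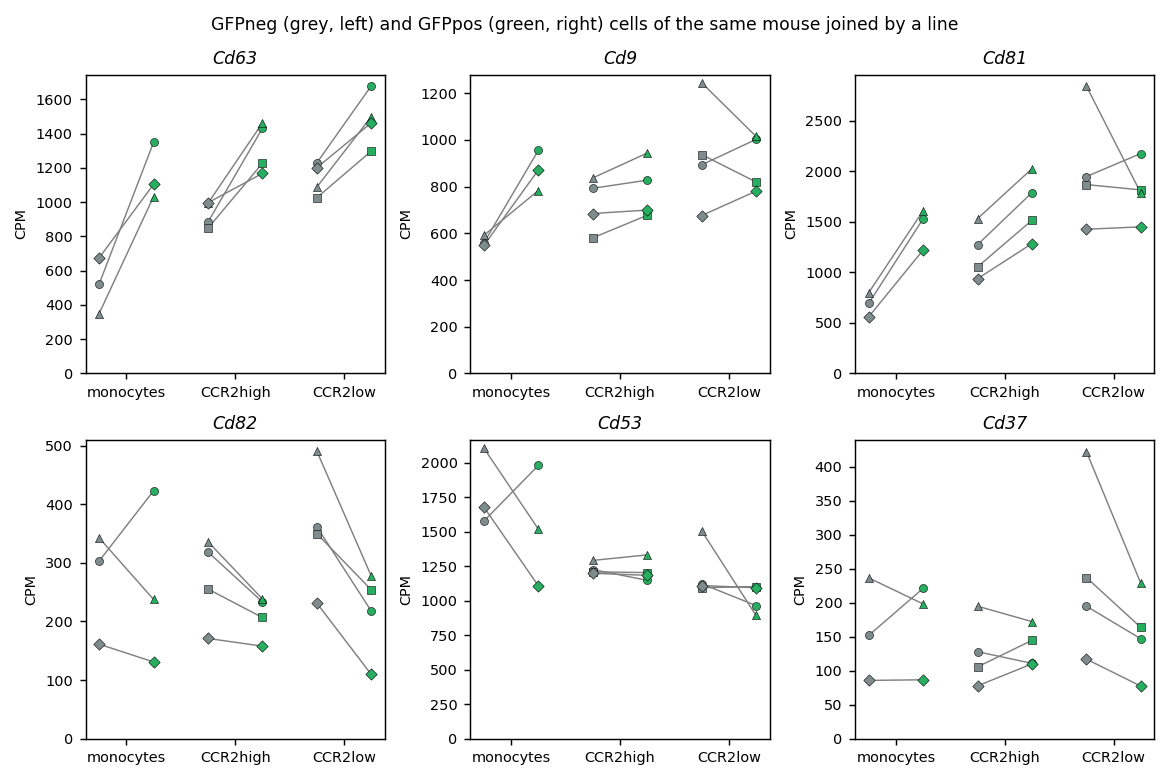
Level (CPM) of 6 tetraspanin genes in GFPneg (grey, left) and GFPpos (green, right) cells of the same mouse, joined by a line, for glioma monocytes, CCR2high and CCR2low macrophages. Cd63 rises along all 11 lines (5 of 11 if libraries are scaled to spike-ins), and Cd82 falls along 10 of 11 under either scaling.

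The genes whose levels ran most like each member's were taken over the 22 brain replicates, by Pearson correlation of log2 CPM among 8134 genes of at least 10 CPM on average. These points share mice, libraries and sorts. They pool the brain populations without removing the population means, so r includes differences between populations, and the correlations are a description. Cd63 ran most like Npl (r = 0.94), Dpp7 (0.88) and Lap3 (0.87), which encode N-acetylneuraminate lyase and 2 peptidases. Cd9 ran with Ldhb (0.89), Cd81 (0.88) and the tetraspanin Tspan7 (0.88), and Cd81 with Ldhb (0.89), Cd9 (0.88) and the microglia marker Tmem119 (0.88). Cd82 ran with Rac2 (0.89) and the T-cell genes Cd2 (0.88) and Cd3e (0.87). Cd53 ran with Isg20 (0.89), Ly6e (0.87) and Slfn2 (0.86), which interferons are known to induce. Cd37 ran with the B-cell receptor gene Cd79a (0.94), Grap (0.91) and P2ry12 (0.91). Cd151 was below the level limit. For the 6 blood replicates, which form 2 populations, no correlation is given.

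Cd37 and Cd82 moved with lymphocyte markers among the brain replicates. The 5 B-cell markers in the table summed to 37.1 to 925 CPM in brain, and r with Cd37 was 0.96 and with Cd82 0.81 (n = 22, pooled over the brain populations, as are all r values here). The highest Cd37 (422.3 CPM), the highest brain value of Cd82 (490.7 CPM) and the highest B-cell sum (925 CPM) were all in GFPneg CCR2low macrophages of mouse 24, the replicate that also held the highest Cd81 (2842 CPM), Cd9 among brain replicates (1245 CPM) and microglia markers (6581 CPM). In mouse 26, where B-cell markers were lowest in each brain population, Cd37 was at 77.4 to 117.1 CPM. With the sum of microglia markers, r was 0.81 for Cd37, 0.79 for Cd81, 0.76 for Cd9, 0.56 for Cd82 and 0.31 for Cd63. With the B-cell sum it was 0.58 for Cd9 and 0.57 for Cd81. The part of other cell types in these levels was not tested.

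**Figure D4:**
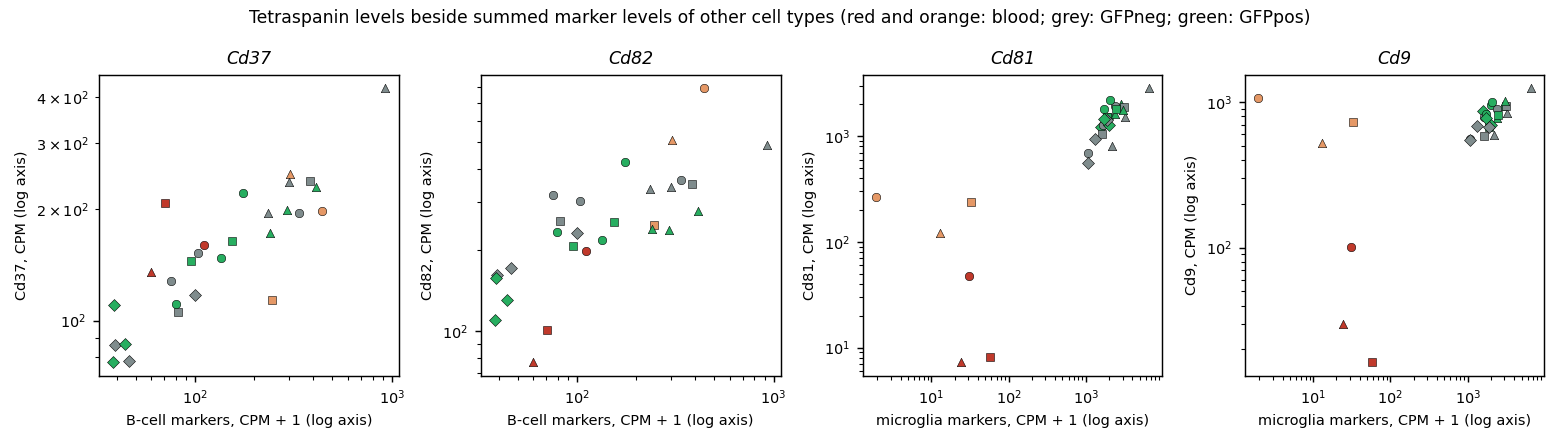
Levels (CPM, log axis) of Cd37 and Cd82 against the sum of B-cell markers, and of Cd81 and Cd9 against the sum of microglia markers (CPM + 1, log axis), in each of the 28 replicates. Cd37 and the B-cell sum are highest in the same replicate (422.3 and 925 CPM), and Cd9 reaches 521.8 to 1067 CPM in the 3 Ly6Clow blood replicates (orange) with microglia sums of 0.944 to 32 CPM.

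Of the 24 other genes of the family, 17 passed the filter. In the blood comparison 0 were called (edgeR), beside 5.61% of all tested genes, with 1 at an unadjusted p under 0.05. Against Ly6Chigh blood monocytes, 5 were higher and 1 lower in glioma monocytes, 6 and 1 in CCR2high macrophages, and 7 and 1 in CCR2low macrophages. Of all tested genes, 13.8%, 17.8% and 20.2% were called in these comparisons. Genes absent from the blood that passed through their brain level had to differ, so these counts describe the list only. The list's median log2 values were 1.64, 2.16 and 2.95, or 0.66, 0.61 and 0.73 with genes at 0 in blood set to their bounds, against 0.12, 0.15 and 0.17 for all genes. Tspan7, first known as an antigen of T-cell leukemia, was at 0 counts in all 6 blood replicates and at a mean of 48.7 ± 10.5 CPM in GFPneg glioma monocytes, at least 35.9-fold higher than the limit of 3 counts per library. In GFPneg CCR2high and CCR2low macrophages its means of 59.1 ± 21.5 and 126.8 ± 53.6 CPM were at least 43.5-fold and 93.5-fold higher. Tspan15 was also at 0 in blood and at 17.1 ± 14.5 CPM in GFPneg glioma monocytes, at least 12.6-fold higher. Upk1b (6.32 ± 6.27 CPM in GFPneg glioma monocytes, at least 4.66-fold) and Tspan6 (5.95 ± 5.34 CPM, at least 4.39-fold) were likewise at 0 in all 6 blood replicates. These bounds cover the blood counts and not the spread of the brain replicates. Tspan14 was the 1 gene called lower in each comparison, from 348.6 ± 11.8 CPM in Ly6Chigh blood monocytes to 170 ± 17.7 CPM in GFPneg glioma monocytes, a fall by 1.04 ± 0.22 (adjusted p = 0.00153, edgeR). It was named after its values were seen.

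Between brain and blood, 10 of the 17 were higher and 2 lower (Tspan14 and Tspan17, also named after their values were seen), beside 39.5% of all tested genes called. Of the 17, 5 were at or under 3 counts in every blood replicate. Genes that passed the filter through their brain level alone had to differ, so this count also describes the list only. The median log2 value of the list was 2.2, or 1.37 with the genes at 0 in blood set to their bounds, against 0.18 for all genes. Tspan15, Tspan14 and Tspan17 belong to the TspanC8 group, whose members escort the protease Adam10 to the surface. In this comparison Tspan15 was higher (15.9 ± 22.4 CPM over the brain replicates and 0 in blood) and Tspan14 and Tspan17 were lower. Tspan5, Tspan10 and Tspan33, also of that group, were not called. Adam10 did not pass in any comparison, with means of 221.3 ± 47.35 CPM in Ly6Chigh blood monocytes and 187.6 ± 75.96 CPM in GFPneg glioma monocytes. Within the brain and between GFPneg and GFPpos cells, 0 of the 17 were called by edgeR in any comparison, with 0 to 4 at an unadjusted p under 0.05. Of all tested genes, at most 2.22% were called in any of these comparisons.

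**Figure D5:**
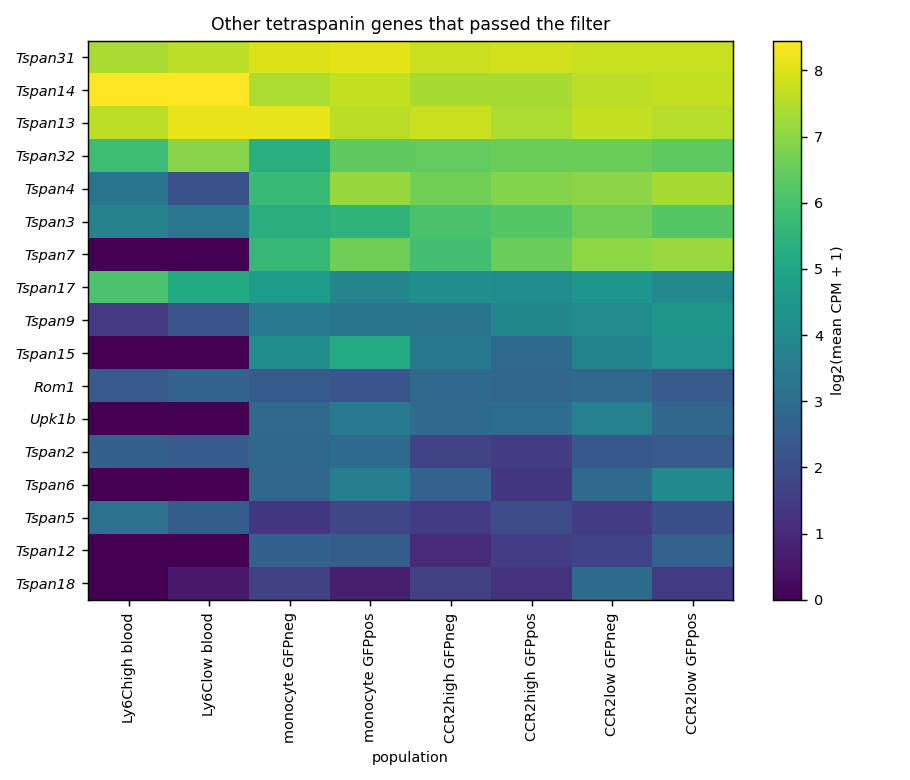
Mean level, as log2(mean CPM + 1), of the 17 other tetraspanin genes that passed the filter (rows) in the 8 populations (columns). Tspan7, Tspan15, Upk1b and Tspan6 are at 0 in both blood populations, and Tspan14 is at 348.6 CPM in Ly6Chigh blood monocytes and at 170 CPM in GFPneg glioma monocytes.

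Among 16 surface partners of tetraspanins (integrins, immunoglobulin-like partners and proteases), 15 were tested. In Ly6Clow against Ly6Chigh monocytes, 2 were higher and 0 lower, beside 5.61% of all tested genes called. These were the scavenger receptor Cd36 (633.9 ± 64.1 against 84.7 ± 67.2 CPM, log2 2.91 ± 0.49, adjusted p = 0.000639) and the laminin receptor subunit Itga6 (log2 4.24 ± 1.08, adjusted p = 0.0185, edgeR). Glioma monocytes held 6 higher and 1 lower, beside 13.8% of all tested genes called. Timp1 and Hbegf were at or under 3 counts in every Ly6Chigh replicate. Genes that passed the filter through other populations had to differ, so the counts against Ly6Chigh blood monocytes describe the list only. Timp1, a protease inhibitor known to bind Cd63, was at 71.9 ± 8.75 CPM against 0 counts in all Ly6Chigh replicates (at least 53-fold higher). Hbegf, whose precursor associates with Cd9, was at 37.5 ± 18.5 CPM (at least 27.6-fold higher), and the membrane protease Mmp14 at 258 ± 70 against 3.05 ± 2.69 CPM (log2 6.66 ± 1.11, adjusted p = 0.000112). Itga6 was higher by 3.87 ± 1.08 (adjusted p = 0.0151). Itga4 was the 1 called lower, by −1.96 ± 0.5 (adjusted p = 0.00777, edgeR), and was named after its value was seen. The median log2 value of the list was 0.37, against 0.12 for all genes. In CCR2high and in CCR2low macrophages 5 were higher and 2 lower, beside 17.8% and 20.2% of all tested genes called, led by the same 4 genes. Timp1 was at 35.6 ± 42.2 and 28.8 ± 31.2 CPM (at least 26.2-fold and 21.2-fold), with an SD above the mean in both. Hbegf was at 11.3 ± 10.2 and 13.9 ± 11 CPM (at least 8.31-fold and 10.2-fold). These bounds cover the blood counts and not the spread of the brain replicates. Mmp14 was higher by 6.25 and 6.22 (log2) and Itga6 by 4.26 and 5.29. Igsf8, the immunoglobulin-like partner that binds both Cd9 and Cd81, was called higher in all 3 (1.1, 1.45 and 1.18), and was likewise named after its values were seen. Within the brain 1 was called, the hyaluronan receptor Cd44, at 190.3 ± 37.7 CPM in CCR2low macrophages against 369 ± 136.5 CPM in glioma monocytes (log2 −0.89 ± 0.2, adjusted p = 0.0106, edgeR). Of all tested genes, 2.22% were called in that comparison.

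Of 13 trafficking partners, all were tested. In each GFPneg brain population against Ly6Chigh blood monocytes 1 was called, beside 13.8%, 17.8% and 20.2% of all tested genes. Sdcbp (syntenin), an adaptor that binds the tail of Cd63 in vesicle formation, was higher in glioma monocytes (2406 ± 283.1 against 1228 ± 276.9 CPM, log2 0.97 ± 0.19, adjusted p = 0.000871) and in CCR2high macrophages (1815 ± 94.2 CPM, log2 0.56 ± 0.18, adjusted p = 0.0306, edgeR). In CCR2low macrophages 1 was called, Zdhhc2, an enzyme that palmitoylates Cd9 and Cd151, at under 10 CPM throughout and named after its value was seen. Rab7, a late-endosome GTPase, was lower in Ly6Clow than in Ly6Chigh monocytes (352.3 ± 38.6 against 557.9 ± 107.8 CPM, log2 −0.66 ± 0.18, adjusted p = 0.0291, edgeR). It was the 1 trafficking partner called in that comparison, beside 5.61% of all tested genes. The median log2 value of the list in the comparison of brain and blood was 0.17, against 0.18 for all genes. Of the 13, 3 were higher and 0 lower, beside 2979 higher and 1595 lower of 11566 tested genes. In every blood replicate 2 of the 13 were at or under 3 counts, and with these set to their bounds the median was 0.13. Genes that passed the filter through their brain level alone had to differ, so the counts of trafficking partners against blood describe the list only. Between GFPneg and GFPpos cells of all 3 types together, 0 of these partners, surface or trafficking, were called by edgeR, beside 0% of all tested genes. At an unadjusted p under 0.05 there were 1 trafficking and 2 surface partners.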

How the data were processed

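The authors deposited read counts per gene for 30 libraries, as whole numbers without normalization. Per the study's methods, reads were aligned to mm10 with STAR, duplicates were removed with Picard, and reads were counted with htseq-count in intersection-strict mode on a Gencode GRCm38 annotation, with no strand setting stated. Genes that overlap, on either strand, and close copies such as Cd63-ps can therefore share or lose reads.

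Libraries with at least 6000 genes of 5 or more reads were kept, and 29 passed. A sample with 2 passing libraries was summed, and the passing library stood for the other repeated sample, which left 28 replicates. The second libraries of both samples were deposited apart from all other libraries. Ly6Clow monocytes of mouse 23 thus came from that second set alone, and GFPpos glioma monocytes of mouse 22 mixed both sets. The tissue label reads brain for every sample, so blood and brain were taken from the cell type label. Reads on no gene (6.28% to 17.4%) and on ambiguous positions (1.58% to 1.9%) stayed out of library sizes. A gene at 0 in a replicate may hold up to 3 counts, a limit that covers counting error only. Replicates are different mice.

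Counts were tested with edgeR 4.0.16 in R 4.3.3: TMM factors, filterByExpr, robust quasi-likelihood fit of the 8 populations in 1 model, Benjamini-Hochberg adjustment over 11566 genes, called under 0.05. DESeq2 1.42.0, other scalings, filters and left-out replicates were alternatives. The main fit did not model the mouse, and the mouse number was a block in an alternative fit. Same-mouse replicates of different populations had a median correlation of their deviations of 0.136 (86 pairs, range −0.0971 to 0.674). For different mice it was −0.03 (256 pairs, range −0.477 to 0.203). The test was checked on counts simulated from its own fitted dispersions, with changes in 1 comparison and no mouse effect. That check therefore does not cover mouse effects or the other comparisons. The 7 members and the gene lists were chosen with earlier results of these data known. Named besides the members were, per comparison, the 4 called genes of each list with the largest change and at least 10 CPM in a population, and the 3 genes most like each member.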

Additional observations from a re-analysis of the deposited data

Results flagged for a closer look

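Among the 28 sets of 4 replicates (7 genes in 4 macrophage populations), 1 held a replicate far from the other three by Dixon's test at the 95% level: Cd53 was at 1507 CPM in GFPneg CCR2low macrophages of mouse 24, against 1094 to 1123 CPM in the other mice. Chance flags about 1 in 20 such sets. This replicate also held the highest Cd37, Cd81 and marker sums for B cells and microglia, as given above, and their part in the value was not tested.

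The library of Ly6Clow blood monocytes of mouse 23 that failed the rule on detected genes entered no comparison, yet it held counts above the limit of 3 for 4 members: 1402 of Cd9, 441 of Cd81, 1958 of Cd53 and 252 of Cd37. It held 0 counts of Cd63 and of Cd151 and 2 of Cd82. The second library of the same sample held 1885 counts of Cd9, 615 of Cd81, 6930 of Cd53 and 294 of Cd37, and also 24 of Cd63, 135 of Cd151 and 642 of Cd82.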

How the results depend on the processing

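Calls were recomputed under 40 alternative settings, 28 of which left out 1 replicate. Of the members' log2 values under single left-out replicates, 1075 kept their direction and side of the threshold (1 of them, of Cd9, turned by less than 1 SD), 43 changed direction with no call before or after, 20 lost a call, 2 gained one and 8, all of Cd63 or Cd9 without Ly6Chigh mouse 22, moved by more than 1 SD. Cd81 against Ly6Chigh blood monocytes was called for each of the 3 GFPneg brain populations under every setting run. Of the 5 tested members, the number called in Ly6Clow against Ly6Chigh monocytes was 2, but 0 with spike-in scaling and 0 with only the populations compared, and 1 to 2 without single replicates. It was 2 in glioma monocytes with the replicate block and 2 without the 3 replicates of most spike-in counts, an alternative chosen after seeing the data, against 1. In CCR2high macrophages it was 2 with at least 10 counts in every library, DESeq2, the replicate block, only the populations compared or without those 3 replicates, against 1, and 1 to 2 without single replicates. In CCR2low macrophages it was 1 with spike-in scaling, against 2, and 1 to 2 without single replicates. For brain against blood it was 1 with DESeq2 size factors, DESeq2, either filter or the replicate block, against 2, and 1 to 2 without single replicates. For CCR2low macrophages against glioma monocytes it was 0 with DESeq2 size factors, spike-in scaling, at least 1 count in any library, the first library only, GFPneg or GFPpos populations alone or without those 3 replicates, and 2 with at least 10 counts in every library, DESeq2 or the replicate block, against 1; without single replicates it was 0 to 1. The replicate block changed no other count of calls. Where a count moved, the cause was not tested. Where only CCR2low macrophages and glioma monocytes were fitted, the count stayed at 1 but Cd81 took the place of Cd53. Spike-in scaling turned the direction of 28 log2 values, of which 2 (both of Cd53, in brain against blood and in CCR2low macrophages against glioma monocytes) had been called. In Ly6Clow against Ly6Chigh monocytes these were Cd63 (−0.863), Cd53 (−1.43), Cd37 (−1.15) and Cd151 (−1.53), and in brain against blood Cd53 (0.34) and Cd37 (0.13). Against glioma monocytes they were Cd82 (0.88), Cd53 (0.42) and Cd37 (0.74) in CCR2high and Cd53 (0.43) and Cd151 (0.25) in CCR2low macrophages, and Cd53 (0.0089) in CCR2low against CCR2high macrophages. In GFPpos against GFPneg cells they were Cd81 (−0.0185) over all types, Cd63 (−0.39), Cd9 (−0.7469), Cd81 (−0.395), Cd37 (−1.69) and Cd151 (−0.30) in monocytes, Cd37 (−0.26) and Cd151 (−0.15) in CCR2high, and Cd81 (0.24) and Cd53 (0.14) in CCR2low macrophages. In the GFP effect of monocytes minus macrophages they were Cd63 (−0.83), Cd9 (−0.83), Cd81 (−0.56), Cd82 (−1.32), Cd37 (−1.51) and Cd151 (−0.72). Other settings turned only values called neither before nor after. These were, without the 3 replicates of most spike-in counts, Cd151 in the blood comparison (−2.16), Cd82 in brain against blood (−0.30), Cd82 (0.34) and Cd37 (0.16) in CCR2high macrophages against glioma monocytes, Cd37 for GFP in monocytes (−0.89), and Cd82 (−0.51) and Cd37 (−0.61) in the GFP effect of monocytes minus macrophages. With the first library they were Cd82 (−0.029) and Cd151 (−0.10) in brain against blood, Cd151 for GFP in monocytes (−0.26) and in monocytes minus macrophages (−0.59). With the replicate block they were Cd37 in glioma monocytes against Ly6Chigh blood monocytes (0.0251) and in brain against blood (0.0252), and Cd151 for GFP in CCR2high macrophages (−0.0476). With GFPneg populations alone they were Cd82 in CCR2high macrophages against glioma monocytes (0.0045) and Cd151 between the macrophages (−0.0306), and with GFPpos populations alone Cd82 (−0.30) and Cd37 (−0.13) in CCR2low macrophages against glioma monocytes. Cd9, which has no test, also turned by less than 1 SD in 3 values with spike-in scaling and in 1 with GFPpos populations alone. Without single replicates, values that turned ranged in the blood comparison from −2.15 to 3.68 for Cd151 and −0.17 to 0.38 for Cd37, in glioma against Ly6Chigh blood monocytes from −0.53 to 0.18 for Cd37, and in brain against blood from −0.25 to 2.07 for Cd151 and −0.17 to 0.245 for Cd82. Against glioma monocytes Cd82 ranged from −0.33 to 0.12 in CCR2high and −0.10 to 0.34 in CCR2low macrophages, and Cd151 between the macrophages from −0.0239 to 0.34. For GFP they ranged in monocytes from −0.24 to 0.47 for Cd37 and −0.58 to 0.30 for Cd82, in CCR2high macrophages from −0.16 to 0.37 for Cd151, −0.10 to 0.39 for Cd37 and −0.0681 to 0.019 for Cd53, in CCR2low macrophages from −0.32 to 0.0518 for Cd81, and in monocytes minus macrophages from −0.0649 to 0.76 for Cd151, −0.32 to 0.10 for Cd53 and −0.0139 to 0.85 for Cd82. Spike-in scaling moved 45 of 56 population means by more than 1 SD, plain totals moved 1 and DESeq2 size factors 0. Depth limits Cd63 and Cd151 in blood, where single replicates held 0 to 24 and 0 to 135 counts. Counts over all genes that differed by more than 1.5 times were, for Ly6Clow against Ly6Chigh monocytes (649 genes, 422 higher), 36 with spike-in scaling (1 higher), 397 with at least 1 count, 400 with the first library, 1375 with DESeq2 and 0 with only those populations. For glioma monocytes, CCR2high and CCR2low macrophages against Ly6Chigh monocytes (1596, 2060 and 2340, of which 1286, 1466 and 1636 higher) they were 398, 523 and 591 with spike-in scaling (390, 467 and 504 higher) and 631, 986 and 1034 with at least 10 counts. For brain against blood (4574, 2979 higher) they were 2448 (2171 higher) and 1815. For CCR2high macrophages against glioma monocytes (87) they were 0 with spike-in scaling, 203 with DESeq2, 167 with the replicate block, 55 with the first library, 139 with only those populations, 21 for GFPneg and 2 for GFPpos populations alone. For CCR2low macrophages against glioma monocytes (257) they were 2, 419, 391, 140 and 19 (spike-in scaling, DESeq2, block, GFPneg, GFPpos alone) and 169 without the 3 replicates of most spike-in counts. Between CCR2low and CCR2high macrophages (0) they were 18 with DESeq2, 13 with the block, 2 with only those populations and 6 without those 3 replicates. For GFPpos against GFPneg cells (0) they were 16, 3 and 3 with DESeq2, the block and only those populations, and 1 with DESeq2 size factors.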
